A study of Homo sapiens with 8 samples.

Results

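The comparison set the 2 RNA libraries labelled T3 for 24 h against the 2 labelled vehicle for 24 h, 4 of the 8 libraries of the series, and covered every gene row of the deposited count tables. The cells were Nthy-ORI, a line from normal human thyroid epithelium that is known to have been immortalised with the SV40 large T antigen gene, and all 4 groups came from this line. Cells were first held for 24 h without thyroid hormone, in medium free of phenol red with serum stripped on charcoal, and then received 10 nM T3 or the NaOH vehicle (0 nM T3). The other 4 libraries, vehicle and T3 for 6 h, entered only to estimate the spread between replicates and to compare the responses at the 2 times. The labels do not say whether the replicates were separate cultures, and the p-values therefore reflect only how these libraries vary, which may be technical variation.

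T3, triiodothyronine, is the active thyroid hormone. It binds the nuclear receptors TR-alpha and TR-beta, encoded by THRA and THRB, which sit on DNA mostly as pairs with a retinoid X receptor such as RXRA. Without hormone the receptors hold corepressors such as NCOR1, and with hormone they exchange them for coactivators, so that genes such as KLF9 and HR are transcribed more. SWI/SNF complexes are chromatin remodelers that move nucleosomes with energy from ATP, and the series concerns their part in transcription controlled by TR-beta.

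RNA was depleted of ribosomal RNA rather than selected for poly(A) tails, so transcripts without such a tail, including the replication-dependent histone messages, could be counted. Reads counted in genes came to 3957592 and 6743039 in the libraries labelled vehicle and to 6057464 and 8201606 in those labelled T3. Vehicle replicate 2 stood apart: its 20 most abundant genes took 15.5% of its counts, against 8.1% to 9.4% in the other 3 libraries. The 13 mitochondrially encoded genes tested summed to 27974 CPM in one vehicle library and 80098 CPM in the other, against 38272 to 40198 CPM with T3. MT-CO1, a cytochrome c oxidase subunit, stood at 5133 and 12239.6 CPM in the vehicle libraries and at 7025 and 6771 CPM with T3, where CPM is counts per 1e6 counts of a library after TMM scaling. More genes had at least 1 count in the vehicle libraries (21154 and 22941) than in those labelled T3 (19476 and 18820). The thyroid identity of the line was partial. The thyroid transcription factor gene PAX8 was at 114 and 155 CPM with vehicle and 108 and 117 CPM with T3, and FOXE1, another, at 21.01 and 23.02 against 24.96 and 16.9 CPM. NKX2-1, TG, TSHR and SLC5A5, which mark differentiated follicular cells, had at most 5 counts in any library of 24 h. The epithelial keratin gene KRT8 was present (96.3 to 139 CPM), CDH1 had at most 2 counts, and of 7 fibroblast markers COL1A1 and PDGFRB passed 3 counts in a library, with COL3A1, DCN and LUM at 0. The 4 endothelial, 4 leukocyte and 3 C cell markers each summed to at most 1.27 CPM per library, and wider lists of 10, 12 and 8 genes to at most 8.07, 3.29 and 10.6 CPM.

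KLF9 and HR, the established T3 targets that check the labels, were both far lower in the libraries labelled T3. KLF9 (chromosome 9, 70384597 to 70414624, minus strand, GRCh38), a transcription factor gene, stood at 20.8 and 31.4 CPM in the libraries labelled vehicle and 2.79 and 3.35 CPM in those labelled T3. HR, which encodes a corepressor, stood at 4.29 and 3.89 CPM and at 0.31 and 0.116 CPM, from 45 and 3 counts in all. The groups did not overlap for either gene, as was so for 7707 of 14611 genes tested (52.7%). The fall of KLF9 was as large with GC content and length of genes taken into account (log2 fold change -3.13, SE 0.30, edgeR adjusted p = 7.15e-05) as without (-3.08, SE 0.31). For HR the vehicle level was 20.4 times that with T3, with an exact 95% counting interval of 6.54 to 102 (a conditional binomial interval, for counting error only). At 6 h KLF9 averaged 0.861 CPM with vehicle and 13.7 CPM with T3, and HR 63.5 and 109 CPM. The vehicle libraries of 24 h thus held HR at only 4.98% and 4.51% of its mean over the 6 h libraries, and KLF9 at 285% and 430%. The source of these shifts was not tested. At 24 h both genes went against the labels, so every direction below compares the T3 libraries with the vehicle libraries as labelled. Whether the labels hold at 24 h cannot be settled from these genes alone.

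Of 14611 genes tested, 1948 (13.3%) passed an edgeR adjusted p of 0.05, 816 higher (5.58%) and 1132 lower (7.75%) in the libraries labelled T3. Most changes were small: 399 genes (2.73%) changed at least 2-fold, 77 higher (0.527%) and 322 lower (2.2%). The count of 1948 rested in part on the 6 h libraries, which help to set the spread: it was 1128 and 1180 without T3 replicate 1 or 2 of 6 h, and 702 when the 4 libraries of 24 h were fitted alone. The genes called higher were poor in GC, with a median of 38.7% over the gene's longest transcript, and those called lower were rich in it, with a median of 60.0%, where all annotated genes tested had a median of 48.1%. Genes called higher were also longer, with a median exon length of 6352 bases against 4479 for those called lower and 5152 for all. With annotated genes in 5 bins of equal size by GC content, 547 of 2585 genes in the poorest bin (23.5% to 40.8% GC) were called higher and 9 lower. In the richest bin (58.0% to 75.5% GC) 8 of 2585 were called higher and 695 lower.

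**Figure D1:**
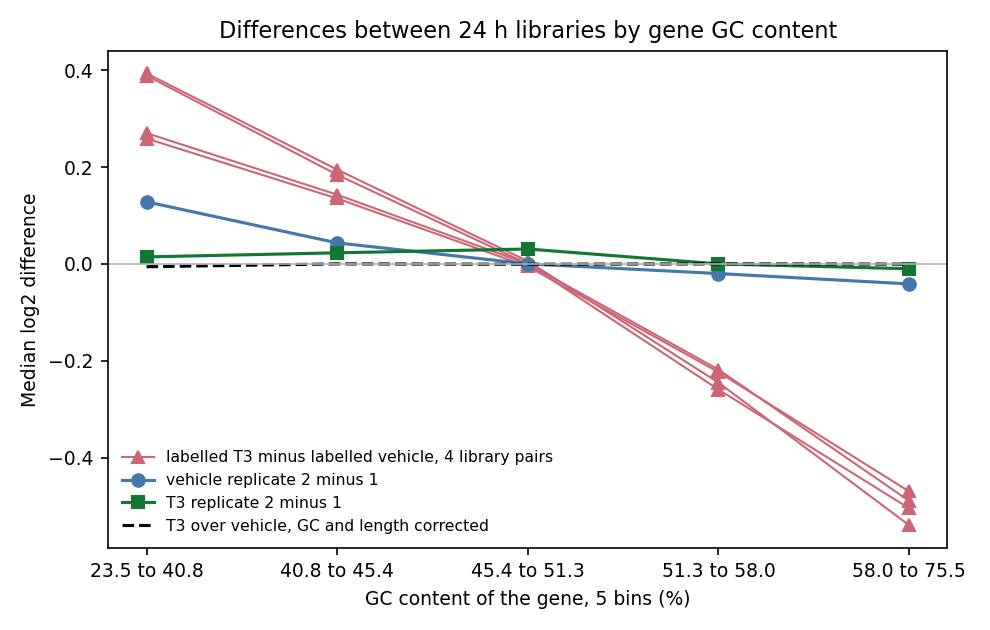
Median log2 difference in CPM between 24 h libraries (vertical axis) for 5 bins of genes by GC content in percent (horizontal axis). Red triangles join the 4 pairings of a library labelled T3 with one labelled vehicle, blue circles the difference between the vehicle replicates, green squares that between the T3 replicates, and the dashed line the fold change after correction. The 4 red lines run from 0.26 to 0.39 in the poorest bin to -0.47 to -0.54 in the richest, while the replicate differences stay between -0.04 and 0.13.

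The slope with GC was between the groups and hardly within them. Each of the 4 pairings of a T3 library with a vehicle library gave a median log2 difference of 0.26 to 0.39 in the poorest bin and of -0.47 to -0.54 in the richest. The same bins differed by a median of 0.13 and -0.04 between the vehicle replicates and by 0.01 and -0.01 between the T3 replicates. At 6 h the fold change of T3 over vehicle had medians of 0.30 and -0.31 in these bins. Length had a smaller trend at 24 h, with medians from -0.18 in the shortest of 5 bins to 0.09 in the longest. The groups also differed in the share of counts set aside as not uniquely aligned, 57.1% and 56.3% with vehicle against 47.6% and 49.97% with T3. These are shares of gene, no-feature, ambiguous and not-unique counts together, and need not equal shares of reads. The part of these shares in the slope was not tested. A biological and a technical source of the slope cannot be told apart in this design.

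After each library's trends along GC content and exon length were removed, 172 of 12924 annotated genes (1.33%) passed, 73 higher (0.565%) and 99 lower (0.766%). Of the 1873 annotated genes called without correction, 143 kept their call and direction, 64 higher and 79 lower, with median GC contents of 47.1% and 50.2%. Single libraries moved this count: leaving out vehicle replicate 1 gave 903 genes, T3 replicate 1 gave 360, vehicle replicate 2 gave 144 and T3 replicate 2 gave 104. These refits with one library left out assume that the lone library of its group varies like the other groups. A correction of this kind also removes any true change that runs along GC content, so a gene that lost its call is not shown to be unchanged.

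**Figure D2:**
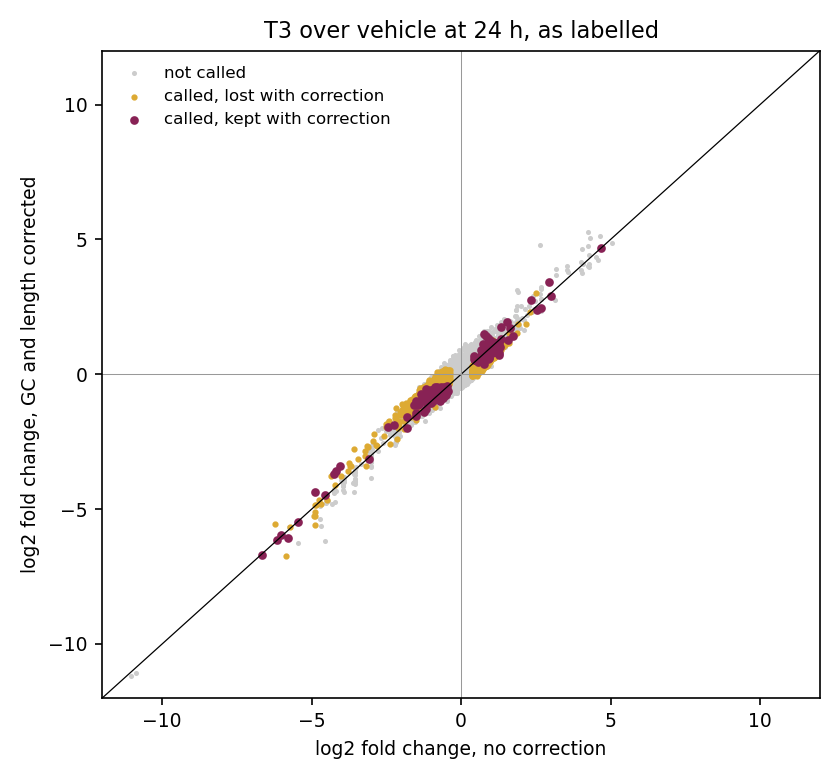
Log2 fold change at 24 h of each annotated gene without correction (horizontal axis) and with GC content and length correction (vertical axis), with the line of equality. Grey points were not called, yellow points were called only without correction and purple points kept their call: 143 genes, against 1873 called without correction.

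The falls that kept their call with the correction included genes of secreted and membrane proteins. COL9A2 (chromosome 1, 40300487 to 40317813, minus strand), a collagen IX chain of cartilage, stood at 12.9 and 15.7 CPM with vehicle and 0.465 and 1.16 CPM with T3 (log2 fold change -4.04, SE 0.43, edgeR adjusted p = 0.00012; -3.42 and adjusted p = 0.000981 corrected). NPTX1 (chromosome 17, 80467148 to 80477843, minus strand), which encodes neuronal pentraxin 1, a secreted synaptic protein, stood at 12.7 and 15.99 against 3.1 and 3.01 CPM (log2 fold change -2.24, SE 0.27, edgeR adjusted p = 0.000281; -1.88 corrected). HEG1 (chromosome 3, 124965710 to 125055958, minus strand), a membrane mucin-like receptor of endothelium and mesothelium, stood at 268 and 292 against 129 and 128 CPM, the smallest corrected p of all genes named here (log2 fold change -1.10, SE 0.10, edgeR adjusted p = 3.06e-05). Groups without overlap were a condition for naming these genes, and each kept its call with correction whichever 24 h library was left out. NUPR1 (chromosome 16, 28532708 to 28539174, minus strand), a small stress-induced nuclear protein gene, did so too: it stood at 27.8 and 28.3 against 8.68 and 10.8 CPM (log2 fold change -1.51, SE 0.18, edgeR adjusted p = 0.000281; -1.43 corrected).

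Other large falls rested on few counts or lost their corrected call when a library was left out. PITX1, a homeobox gene of hindlimb and pituitary development, had 30 counts with vehicle and 1 with T3, 40.7 times as much with vehicle (exact 95% counting interval 6.77 to 1662). At 6 h PITX1 averaged 81.5 CPM with vehicle and 87.5 CPM with T3. Its vehicle libraries of 24 h were thus already low, at 3.21% and 3.18% of its mean over the 6 h libraries. SCNN1A, the alpha subunit of the epithelial sodium channel, had 29 counts with vehicle and 0 with T3, at least 13.1-fold lower against a floor of 3 counts over the group. CORO7, which encodes a coronin of the Golgi, stood at 5.42 and 5.83 CPM against 0.465 and 0.116 CPM, and KAZALD1, a secreted binding protein of the IGFBP superfamily, at 7.91 and 5.68 against 2.02 and 0.578 CPM. IFITM3, an interferon-induced membrane protein that restricts virus entry, stood at 28.9 and 38.3 against 14.9 and 13.3 CPM (log2 fold change -1.27, SE 0.17, edgeR adjusted p = 0.000431). HSPG2, the basement membrane proteoglycan perlecan, stood at 683 and 675 against 296 and 303 CPM, and its fall of 1.18 on the log2 scale was -0.56 with the correction (edgeR adjusted p = 0.0142). With the correction, PITX1 lost its call without T3 replicate 2 (edgeR adjusted p = 0.0829), CORO7 without vehicle replicate 2 (0.0509) and HSPG2 without T3 replicate 1 (0.0695). SCNN1A, KAZALD1 and IFITM3 lost it without vehicle replicate 2 (edgeR adjusted p = 0.172, 0.0525 and 0.118) and without T3 replicate 2 (0.0847, 0.141 and 0.0744).

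The rises that kept their call with the correction included HSPE1, THAP2, AMN1 and SLC30A1. HSPE1 (chromosome 2, 197499994 to 197503457, plus strand), the mitochondrial co-chaperone HSP10, stood at 18.8 and 11.1 CPM with vehicle and 39.8 and 49.3 CPM with T3 (log2 fold change 1.62, SE 0.23, edgeR adjusted p = 0.000994; 1.71 and adjusted p = 0.00143 corrected). THAP2, a zinc finger protein gene, stood at 11.8 and 12.7 against 32.2 and 40.9 CPM (corrected log2 fold change 1.27, SE 0.21, edgeR adjusted p = 0.00641), and AMN1 at 4.97 and 6.58 against 23.4 and 16.1 CPM (corrected 1.43, edgeR adjusted p = 0.0197). SLC30A1, the zinc exporter of the plasma membrane, stood at 109 and 124 against 225 and 211 CPM (corrected 0.56, edgeR adjusted p = 0.0122). Groups without overlap were again a condition for naming these 4 genes, and each kept its corrected call whichever 24 h library was left out. PSMA1, a 20S proteasome subunit, stood at 18.98 and 13.2 against 32.9 and 33.5 CPM, and YAP1, the transcriptional coactivator of the Hippo pathway, at 169 and 185 against 280.0 and 292 CPM. LRP1B, a large lipoprotein receptor, stood at 1.58 and 0.747 against 6.05 and 7.98 CPM, and SLC1A1, a glutamate and cysteine transporter, at 0.678 and 0.448 against 3.26 and 3.24 CPM. With the correction PSMA1 lost its call without vehicle replicate 2 (edgeR adjusted p = 0.141), YAP1 without T3 replicate 2 (0.0791), LRP1B without vehicle replicate 2 (0.207) or T3 replicate 2 (0.0847), and SLC1A1 without the same libraries (0.229 and 0.0609). SLC1A1 lost it without vehicle replicate 2 in the uncorrected fit too (edgeR adjusted p = 0.0658).

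**Figure D3:**
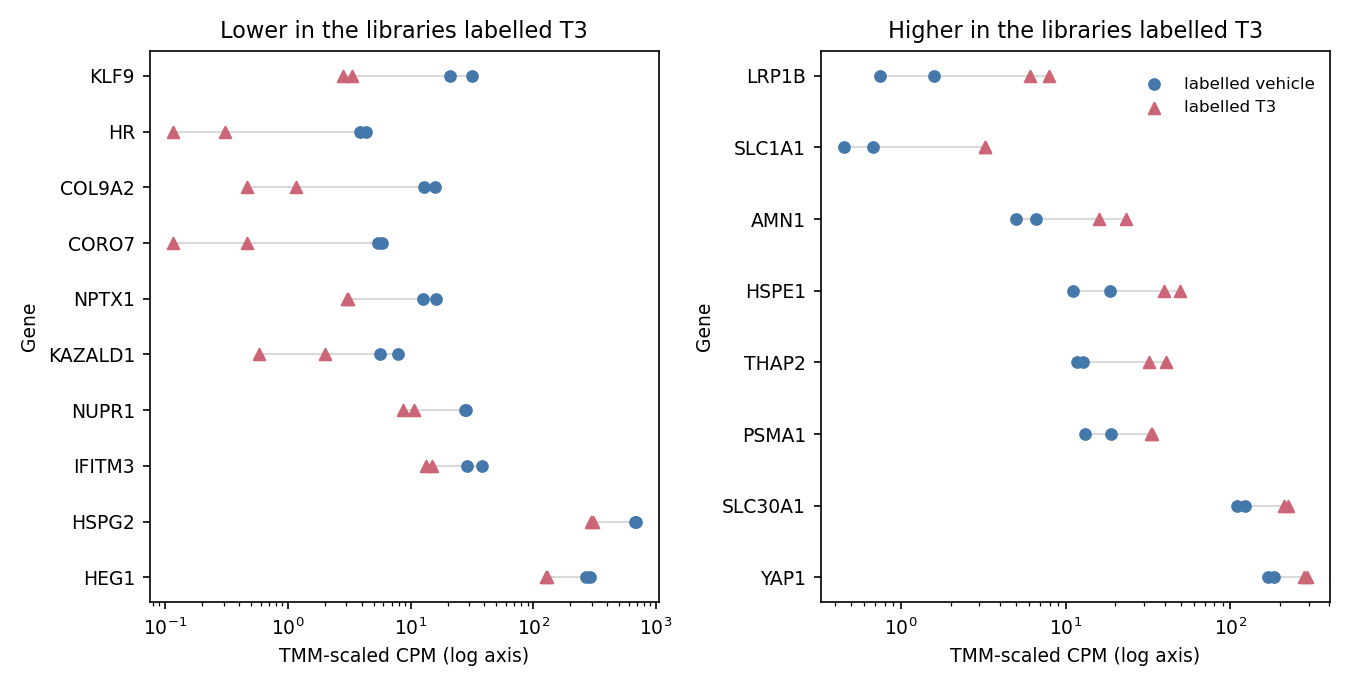
TMM-scaled CPM on a log axis in each of the 4 libraries of 24 h for 10 genes lower and 8 genes higher in the libraries labelled T3 that kept their call with correction. Blue circles are the vehicle libraries and red triangles the T3 libraries. The groups are separate in every row because the genes were chosen without overlap, as in KLF9, at 20.8 and 31.4 against 2.79 and 3.35 CPM. Of all genes tested 52.7% had separate groups.

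Some of the largest rises were in rows named by clone, for which no annotation was matched and no correction could be made. RP11-358D17.2 stood at 2.03 and 1.35 CPM with vehicle and 43.7 and 40.9 CPM with T3 (log2 fold change 4.67, SE 0.33, edgeR adjusted p = 1.06e-06), and it kept its call in every leave-out of a library. RP1-273N12.4 stood at 0.452 and 0.448 against 12.7 and 16.5 CPM, from 5 counts in the vehicle libraries (log2 fold change 4.95, SE 0.69, edgeR adjusted p = 0.00104). In the other direction RMRP, the RNA of the RNase MRP complex that cuts precursor ribosomal RNA, fell from 2033 and 1054 CPM to 376 and 514 CPM (log2 fold change -1.79, SE 0.33, edgeR adjusted p = 0.0164). The groups of RMRP were apart, as the naming rule required, and its vehicle libraries themselves differed widely.

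Targets of p53, the transcription factor that answers DNA damage, leaned upward. Of 36 tested members of that list 14 were called higher and 0 lower, against 5.58% of all genes called higher, and 31 of 36 had a fold change above 0. The median log2 fold change was 0.45 over the list and -0.01 over all genes. The list was not GC-poor (median 47.2%), and with the correction its median was 0.47, with 7 called higher and 0 lower against 0.565% of all genes. Left-out libraries moved the count to between 8 (without T3 replicate 2) and 13 uncorrected, with 9 without vehicle replicate 2, and to between 4 (without T3 replicate 2) and 9 corrected, and 0 members were called lower in any of these fits. The list belongs to the patterns already known from these libraries, so its direction is not independent evidence.

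The p53 targets called higher included a regulator of p53 itself and a cell cycle inhibitor. MDM2 (chromosome 12, 68808176 to 68850686, plus strand), the ubiquitin ligase that p53 induces and that degrades p53, stood at 386 and 403 CPM with vehicle and 789 and 822 CPM with T3 (log2 fold change 1.03, SE 0.12, edgeR adjusted p = 0.00025; 0.81 and adjusted p = 0.000642 corrected). CCNG1 (chromosome 5, 163437569 to 163446151, plus strand), the cyclin G1 gene, stood at 240.2 and 226 against 460.3 and 573 CPM (log2 fold change 1.15, SE 0.13, edgeR adjusted p = 0.000147; 0.82 corrected). MDM2 and CCNG1 were named under the rule that the groups do not overlap. CDKN1A (chromosome 6, 36676460 to 36687339, plus strand), the CDK inhibitor p21, was named after its values were seen: it stood at 65.98 and 65.5 CPM against 94.7 and 124 CPM (log2 fold change 0.74, SE 0.15, edgeR adjusted p = 0.00501), and its change was larger with the correction (1.13, SE 0.14, edgeR adjusted p = 0.000905). GDF15 (chromosome 19, 18374731 to 18389176, plus strand), a secreted stress cytokine of the TGF-beta superfamily, stood at 8.13 and 9.57 against 16.4 and 15.6 CPM, a log2 fold change of 0.84 uncorrected and 1.41 corrected (edgeR adjusted p = 0.00436). BTG2, an antiproliferative gene, stood at 21.9 and 19.9 against 31.5 and 42.3 CPM (corrected 0.92, edgeR adjusted p = 0.02696). Of these 5 genes BTG2 alone lost its corrected call on leaving out a library, without vehicle replicate 2 or T3 replicate 2 (edgeR adjusted p = 0.0884 and 0.0892). In the uncorrected fit GDF15 lost its call without vehicle replicate 1 (edgeR adjusted p = 0.0944), CDKN1A without T3 replicate 2 (0.053), and BTG2 without vehicle replicate 2 (0.0728) or T3 replicate 2 (0.0928). TP53INP1 and RRM2B, a p53-induced nuclear protein and a subunit of ribonucleotide reductase, rose by 1.01 and 0.90 on the log2 scale and lost their calls with the correction (edgeR adjusted p = 0.125 and 0.127). The remaining corrected calls, TNFRSF10B, a death receptor gene, and TP53I3, a quinone oxidoreductase gene, were also named after their values were seen. TP53I3 was called only with the correction. TNFRSF10B lost its uncorrected call in 6 of the 8 leave-outs, all but those of the 24 h libraries vehicle replicate 1 and T3 replicate 1 (edgeR adjusted p up to 0.23), and its corrected call without vehicle replicate 2 or T3 replicate 2 (0.141 and 0.116).

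**Figure D4:**
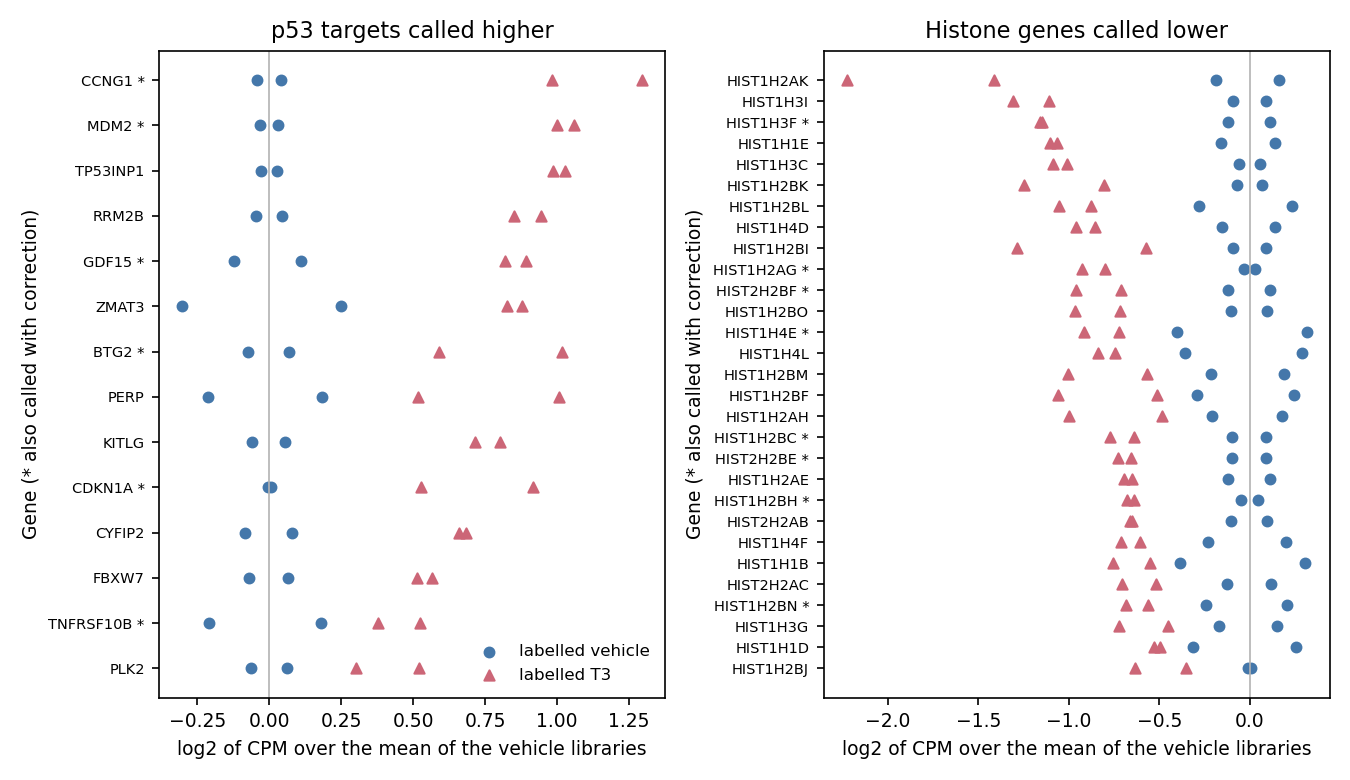
Log2 of CPM over the mean of the vehicle libraries (horizontal axis) in each 24 h library for the 14 p53 targets called higher (left) and the 29 histone genes called lower (right) in the libraries labelled T3. Blue circles are vehicle libraries and red triangles T3 libraries, and an asterisk marks genes that were also called with the correction, 6 and 8 of them. The T3 libraries of MDM2 and of HIST1H3F lie about 1 unit from the vehicle libraries, above and below.

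Replication-dependent histone genes, whose messages are made in S phase and end in a stem-loop in place of a poly(A) tail, leaned downward. Of 52 tested members 29 were called lower and 0 higher, against 7.75% of all genes called lower, and 47 of 52 had a fold change below 0 (median -0.65). As a group they were GC-rich (median 57.3%). With the correction 8 were called lower and 0 higher, against 0.766% of all genes, and the median was -0.44. Leave-outs gave 21 to 33 called lower uncorrected. With correction they gave 5 without T3 replicate 2, 9 without T3 replicate 1, 12 without vehicle replicate 2, and 13 lower and 5 higher without vehicle replicate 1. Copies of these genes are nearly identical in sequence, so reads can be lost or shared between them and single genes are uncertain.

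The 8 genes called in both fits included core histones of 4 kinds and were, HIST1H3F apart, named after their values were seen. HIST1H2AG (chromosome 6, 27133042 to 27135291, plus strand), an H2A gene, stood at 95.1 and 99.4 CPM with vehicle and 55.96 and 51.2 CPM with T3 (log2 fold change -0.86, SE 0.12, edgeR adjusted p = 0.000657; -0.90 and adjusted p = 0.000642 corrected). The H2B gene HIST1H2BH stood at 101 and 94.2 against 60.8 and 62.6 CPM (log2 fold change -0.66, SE 0.13, edgeR adjusted p = 0.00501; -0.87 corrected). HIST2H2BE (chromosome 1, 149884459 to 149886652, minus strand), another H2B gene, stood at 74.6 and 85.1 against 48.2 and 50.5 CPM (log2 fold change -0.70, SE 0.13, edgeR adjusted p = 0.00294; -0.69 corrected). These 3 genes and HIST1H2BC kept their corrected call whichever 24 h library was left out. Their GC content, 41.6% to 48.0% over the longest annotated transcript, was at or below the median of all genes. Their annotated exon lengths were 2250, 2060, 2194 and 834 bases, against a median of 463 bases for the list. The annotated transcripts may therefore differ from the messages counted, and whether the correction suits these genes was not tested. HIST1H3F (chromosome 6, 26250195 to 26250605, minus strand), an H3 gene, stood at 110.0 and 93.6 against 45.9 and 45.6 CPM, with a fall of 1.15 on the log2 scale uncorrected and a value of -0.60 corrected (edgeR adjusted p = 0.0413). Its corrected call did not survive leaving out vehicle replicate 2 or either T3 library of 24 h (edgeR adjusted p = 0.107, 0.0885 and 0.0686). HIST2H2BF, HIST1H2BN and the H4 gene HIST1H4E lost theirs without T3 replicate 2 (edgeR adjusted p = 0.0511, 0.0516 and 0.111). Uncorrected, HIST1H2BN lost its call without vehicle replicate 1 (0.0754) or T3 replicate 1 (0.0539), and HIST1H4E without T3 replicate 2 (0.0597). Of the 4 largest falls without correction 3 lost their calls with it, in GC-rich genes: HIST1H2AK fell by 1.78 (corrected adjusted p = 0.0635), HIST1H3I by 1.21 (0.114) and the linker histone gene HIST1H1E by 1.08 (0.0792).

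Promoters of these genes are shown because the members moved together and because histone promoters share short boxes near the start. The last 120 bases before the RefSeq start (GRCh38.p14), 5′ to 3′ on the gene's strand, are in lower case with CCAAT and TATAAA, on either strand, in capitals (ATTGG and TTTATA are the reverse complements, and TATAAA and TTTATA overlap where they meet). H2AC11 lies at chr6:27132923-27133042 on the plus strand, H2BC9 at chr6:26251494-26251613 on the plus strand, H3C7 at chr6:26250636-26250755 on the minus strand and H2BC21 at chr1:149886683-149886802 on the minus strand.
H2AC11 (HIST1H2AG): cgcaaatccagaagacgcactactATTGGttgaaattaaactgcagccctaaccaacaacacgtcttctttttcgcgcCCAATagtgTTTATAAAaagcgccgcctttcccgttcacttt
H2BC9 (HIST1H2BH): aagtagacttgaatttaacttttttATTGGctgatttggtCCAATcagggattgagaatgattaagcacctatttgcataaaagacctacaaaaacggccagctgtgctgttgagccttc
H3C7 (HIST1H3F): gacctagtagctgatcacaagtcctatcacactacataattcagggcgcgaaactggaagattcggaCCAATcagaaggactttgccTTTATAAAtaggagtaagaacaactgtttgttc
H2BC21 (HIST2H2BE): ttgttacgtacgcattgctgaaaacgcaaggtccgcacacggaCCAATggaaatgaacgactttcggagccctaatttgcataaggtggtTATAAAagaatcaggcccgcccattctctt

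The 4 sequences each held CCAAT or its reverse complement in these 120 bases, and 3 of them held TATAAA. Over 250 bases before the start, CCAAT on either strand was present in 46 of 53 matched histone promoters (86.8%) and in 32.0% of 35116 promoters in all, and TATAAA in 35 of 53 (66.0%) and in 10.7%. Of 27 matched promoters of genes called lower, 25 held CCAAT and 16 TATAAA, and of 21 of tested genes not called, 17 held CCAAT and 17 TATAAA. A match describes the letters only.

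Of 79 cytosolic ribosomal protein genes tested, 23 were called lower and 1 higher, against 7.75% and 5.58% of all genes, and 19 had a fold change above 0. The median log2 fold change was -0.23. With the correction 13 were called lower and 1 higher, against 0.766% and 0.565% of all genes (median -0.18). RPL28 (chromosome 19, 55385345 to 55403250, plus strand), of the large subunit, stood at 223 and 333 CPM with vehicle and 107 and 105 CPM with T3 (log2 fold change -1.39, SE 0.15, edgeR adjusted p = 0.000135; -1.12 and adjusted p = 0.00158 corrected). RPL39 (chromosome X, 119786504 to 119791643, minus strand), also of the large subunit, was the member called higher, at 61.9 and 38.3 against 103 and 124 CPM (log2 fold change 1.20, SE 0.18, edgeR adjusted p = 0.00131; 1.17 corrected). The groups of both genes were apart, as the naming rule required, although the vehicle replicates differed. Both genes kept their corrected call whichever 24 h library was left out. RPS25, of the small subunit, stood at 152 and 198 against 102 and 95.3 CPM (log2 fold change -0.83, SE 0.13, edgeR adjusted p = 0.00136), and lost its corrected call without vehicle replicate 2 (edgeR adjusted p = 0.0589) or T3 replicate 2 (0.0847). RPS15 fell by 1.18 on the log2 scale and lost its call with the correction (edgeR adjusted p = 0.0684). The counts for this list followed the vehicle library that was used. Without vehicle replicate 1, 12 members were called higher and 21 lower uncorrected, and 16 higher and 18 lower corrected. Uncorrected, 15 and 12 were called lower when T3 replicate 1 or T3 replicate 2 was left out, and corrected, 26 and 3 when vehicle replicate 2 or T3 replicate 2 was. Ribosomal protein genes have many processed pseudogenes that can take or give reads.

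The 13 mitochondrially encoded genes were all below 0 (median log2 fold change -0.41, and -0.63 corrected), and edgeR called 0 with either fit, also at an unadjusted p under 0.05. Their sign followed 1 library: the median was 0.55 without vehicle replicate 2 and -1.08 without vehicle replicate 1, when 6 were called lower.

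**Figure D5:**
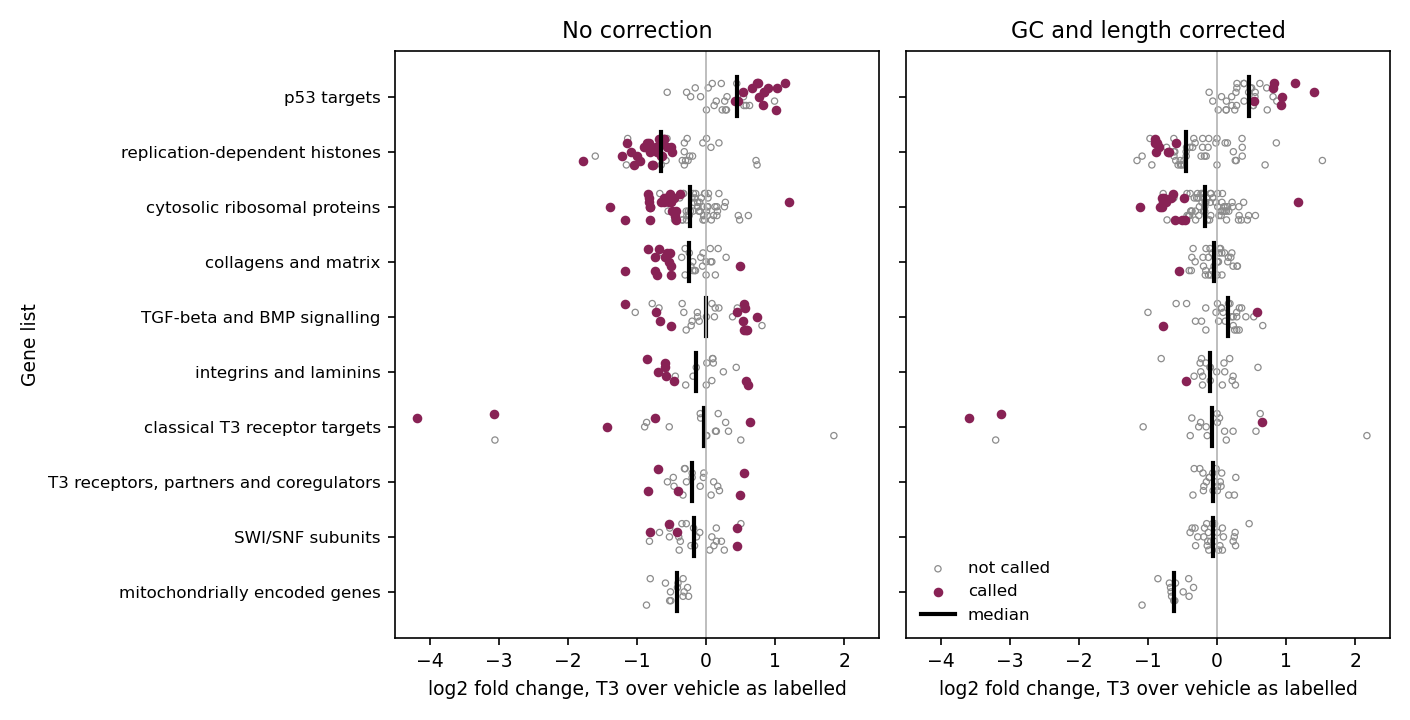
Log2 fold change at 24 h (horizontal axis) of each tested member of 10 gene lists, without correction (left) and with GC content and length correction (right). Filled points were called, open points were not, and a black bar marks the median. Members of the p53 list lie mostly above 0 in both panels (medians 0.45 and 0.47) and histone genes mostly below (-0.65 and -0.44), while called members of the matrix list number 13 on the left and 1 on the right.

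Of 20 tested classical receptor targets 4 were called lower, KLF9, HR, DBP and TIMP1, and 1 higher, ADAMTS1, a secreted protease gene, which is 25% of the list against 13.3% of all genes. DBP, a circadian transcription factor gene, stood at 3.39 and 3.44 CPM against 0.9301 and 1.504 CPM and TIMP1, a protease inhibitor gene, at 22.1 and 21.5 against 11.6 and 14.2 CPM, and both lost their calls with the correction (edgeR adjusted p = 0.263 and 0.328). ADAMTS1 stood at 39.3 and 36.3 against 53.2 and 64.2 CPM and passed narrowly with it (corrected log2 fold change 0.65, edgeR adjusted p = 0.0496). Its corrected call was lost without vehicle replicate 2 (log2 fold change 0.59) and without T3 replicate 2 (0.52). DBP kept its call in only 1 of the 8 leave-outs, that of T3 replicate 2 (highest edgeR adjusted p = 0.135). TIMP1 lost it without T3 replicate 1 (edgeR adjusted p = 0.0527), and ADAMTS1 without T3 replicate 1 of 6 h (0.0511), vehicle replicate 2 (0.0805) or T3 replicate 2 (0.104).

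Among receptors, partners and coregulators 3 of 21 were called lower and 2 higher, 23.8% against 13.3% of all genes. With the correction edgeR called 0, when 1.33% of all genes were called, with 2 lower and 0 higher at an unadjusted p under 0.05, and 3 were called lower without vehicle replicate 1. THRA stood at 25.8 and 32.1 CPM with vehicle and 18.3 and 17.7 CPM with T3 (log2 fold change -0.70, SE 0.19, edgeR adjusted p = 0.0238; adjusted p = 0.526 corrected). TBL1XR1, an exchange factor of the corepressor complex with 34.5% GC, went up, at 221 and 258 against 351 and 348 CPM, with 0.54 uncorrected and 0.07 corrected. NRIP1, a corepressor gene, rose by 0.49 and PRMT1, an arginine methyltransferase coactivator gene, fell by 0.40, neither called with the correction. THRA lost its call without vehicle replicate 2 (edgeR adjusted p = 0.154) or T3 replicate 2 (0.0647), NRIP1 without T3 replicate 2 (0.0708), and PRMT1 in all leave-outs but that of vehicle replicate 1 of 24 h (highest 0.198). The list had 6 members called lower without vehicle replicate 1, 1 without vehicle replicate 2 and 2 without any other single library, and 1 called higher without T3 replicate 2. THRB, the TR-beta gene, stood at 29.4 and 40.96 CPM against 37.8 and 31.6 CPM, RXRA at 30.5 and 27.7 against 24.2 and 26.1 CPM and NCOR1 at 176 and 255 against 207 and 199.7 CPM, none of them called and all with overlapping groups but RXRA. SLC7A5, which carries thyroid hormone and large neutral amino acids, stood at 289 and 309 against 202 and 183 CPM and lost its call with the correction (edgeR adjusted p = 0.583). The deiodinase genes, which activate or inactivate the hormone, were near the floor: DIO2 had 4, 8, 4 and 0 counts, DIO1 at most 1 and DIO3 0.

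Of 27 SWI/SNF subunits 3 were called lower and 2 higher, 18.5% against 13.3% of all genes. With the correction edgeR called 0, against 1.33% of all genes, with 2 lower and 3 higher at an unadjusted p under 0.05. Corrected leave-outs called 2 lower and 1 higher without vehicle replicate 1 and 1 higher without vehicle replicate 2. SMARCA4, the ATPase BRG1, stood at 178 and 198 CPM with vehicle and 129 and 131 CPM with T3 (log2 fold change -0.54, SE 0.11, edgeR adjusted p = 0.007096), and its value was -0.04 with the correction. BCL7B and SMARCB1 fell by 0.81 and 0.43, and ACTL6A and PHF10 rose by 0.45 and 0.45. SMARCB1 changed sign with the correction, to a value of 0.005. ARID1A stood at 149 and 217 against 186 and 159 CPM, overlapping and not called. SMARCA4 kept its call in every leave-out. BCL7B lost it without vehicle replicate 2 (edgeR adjusted p = 0.0708), and SMARCB1 without either T3 library of 6 h or of 24 h (highest 0.109). ACTL6A lost it without either T3 library of 6 h, either vehicle library of 24 h or T3 replicate 2 (highest 0.171), and PHF10 without either T3 library of 6 h or of 24 h or vehicle replicate 2 (highest 0.0834).

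Of 35 listed collagen and matrix genes 12 were called lower and 1 higher, 37.1% against 13.3% of all genes. With the correction 1 of the 35 was called, HSPG2, against 1.33% of all genes. COL9A2, which kept its call, is not in that list. The member called higher lost its call without any one of the T3 libraries of either time or vehicle replicate 1. COL1A1, the main fibrillar collagen and here also a fibroblast marker, stood at 1226 and 1123 CPM against 703 and 608 CPM (log2 fold change -0.84, SE 0.12, edgeR adjusted p = 0.000703), with a value of -0.35 and an adjusted p of 0.1005 corrected. The 7 fibroblast markers summed to 1147 to 1252 CPM with vehicle and 629 to 725 CPM with T3, nearly all of it COL1A1, and their part in the matrix counts was not tested. COL6A1 fell by 0.71 and lost its call with the correction and, uncorrected, without vehicle replicate 2 (edgeR adjusted p = 0.118). Of 21 integrins and laminins 6 were called lower and 2 higher (38.1%), and 1 was called lower with the correction, with 0 in the corrected leave-outs of vehicle replicate 2 and of T3 replicate 2 and 2 in that of T3 replicate 1. LAMB2 and ITGA3, a basement membrane laminin chain and its receptor subunit, fell by 0.70 and 0.60, while ITGAV, the alpha V integrin, rose by 0.61, and all 3 lost their calls with the correction. Integrins and laminins called lower numbered 3 without either T3 library of 6 h, 4 without vehicle replicate 1 or T3 replicate 2, and 1 was called higher in all leave-outs except that of vehicle replicate 1.

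In TGF-beta and BMP signalling 8 of 33 members were called higher and 4 lower, 36.4% against 13.3% of all genes, with a ligand and a receptor on opposite sides. TGFB1, the ligand, which is GC-rich (63.5%), stood at 17.9 and 22.7 CPM with vehicle and 10.2 and 7.98 CPM with T3 (log2 fold change -1.18, SE 0.23, edgeR adjusted p = 0.00402). TGFBR1, a receptor kinase with 39.0% GC, stood at 113 and 92.1 against 164 and 176 CPM (log2 fold change 0.73, SE 0.13, edgeR adjusted p = 0.00227). With the correction their values were -0.59 and 0.42, neither called, and the list had 1 member called in each direction (1.33% of all genes were called). Corrected leave-outs of vehicle replicate 1 and of T3 replicate 1 each gave 2 higher, and that of T3 replicate 2 gave 0. The counts of 8 higher and 4 lower became 4 and 3 without vehicle replicate 1, 7 and 2 without vehicle replicate 2, and 5 and 2 without T3 replicate 2.

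The shares of cell cycle genes called were near that of all genes (13.3%). Of 40 DNA replication and G1/S genes 5 were called lower and 2 higher (17.5%), and of 36 mitosis genes 4 lower and 1 higher (13.9%). With the correction edgeR called 0 in both lists, against 1.33% of all genes, with 4 lower and 2 higher of the former and 2 and 2 of the latter at an unadjusted p under 0.05. Without vehicle replicate 1 the corrected calls were 2 higher, and 2 higher and 2 lower, and without T3 replicate 1 there was 1 higher among replication genes. The licensing factor CDT1 stood at 30.3 and 39.02 CPM against 20.6 and 18.97 CPM, the chromatin assembly factor CHAF1A at 132 and 127 against 84.6 and 84.9 CPM and the helicase subunit MCM5 at 128 and 121 against 90.2 and 83.7 CPM. CCNE2, cyclin E2, stood higher at 64.6 and 79.4 against 109.6 and 115 CPM, as did RFC3, of the clamp loader, at 84.96 and 83.6 against 126 and 128 CPM. The mitotic kinase AURKB stood at 43.2 and 40.7 against 25.4 and 29.8 CPM. Those lower were GC-rich (55.6% to 64.9%) and those higher GC-poor (36.9% and 39.1%). CDT1 lost its call without vehicle replicate 2 (edgeR adjusted p = 0.055), MCM5 without T3 replicate 2 (0.0653), CCNE2 without vehicle replicate 1 (0.0659) and AURKB without T3 replicate 1 (0.0713). Replication genes called lower numbered 8 without vehicle replicate 2, 3 without vehicle replicate 1 or either T3 library of 6 h and 2 without T3 replicate 2, and 4 were called higher without vehicle replicate 1 or T3 replicate 1. For mitosis the 4 lower calls became 2 in the leave-outs of vehicle replicate 2, of T3 replicate 2 and of each T3 library at 6 h, and 1 in that of T3 replicate 1. The one mitosis gene called higher was no longer called in the leave-outs of vehicle replicate 2, of T3 replicate 2 and of each T3 library at 6 h, and leaving out vehicle replicate 1 gave 2.

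Of 27 genes of the integrated stress response 6 were called lower and 4 higher, 37.0% against 13.3% of all genes, and with the correction NUPR1 alone. Called lower were 2 without either T3 library of 6 h and 3 without T3 replicate 1, and called higher 1 without vehicle replicate 2, T3 replicate 2, vehicle replicate 2 of 6 h or either T3 library of 6 h. The corrected calls became 5 higher and 2 lower without vehicle replicate 1, and 1 and 2 without vehicle replicate 2. HSPE1 and SLC30A1, described above, were the corrected calls among 26 heat shock chaperones and 9 metallothionein and zinc transport genes. The next 14 genes were called without the correction. The small heat shock protein gene HSPB1 stood at 51.3 and 73.4 CPM with vehicle and 31.3 and 22.2 CPM with T3, MT2A, a metallothionein, at 44.3 and 77.9 against 24.5 and 29.1 CPM, and SLC39A10, a zinc importer, at 35.3 and 31.99 against 56.9 and 51.2 CPM. The chaperone genes HYOU1 and CALR of the endoplasmic reticulum fell by 0.62 and 0.59, and SLC7A11, the cystine transporter, rose by 0.54. FASN (fatty acid synthase), PFKL (phosphofructokinase) and NDUFS8 (a complex I subunit) fell by 0.92, 0.66 and 0.96. The AP-1 genes FOSL1 and JUND, the adhesion gene ICAM1 and the IGF binding protein gene IGFBP4 fell by 1.04, 0.88, 0.80 and 0.91, and OCLN, the tight junction protein occludin, rose by 0.98. None of the 14 genes from HSPB1 to OCLN was called with the correction, where their lowest edgeR adjusted p was 0.0684 (NDUFS8). MT2A lost its call without T3 replicate 1 or T3 replicate 2 (edgeR adjusted p = 0.0918 and 0.0724), and SLC7A11 without T3 replicate 1 (0.0629). Of 64 nuclear respiratory chain subunits 4 were called higher and 4 lower (12.5%, against 13.3% of all genes), but 16 and 3 without vehicle replicate 1 and 0 and 8 without vehicle replicate 2.

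The response at 24 h differed from that at 6 h for 269 of 14611 genes (1.84%), 124 with a higher change at 24 h (0.849%) and 145 with a lower one (0.992%), tested as the difference of the 2 fold changes in the same edgeR fit, and for 298 of 12924 (2.31%) with the correction. The 2 comparisons share no library, and vehicle levels themselves differed widely between the times for genes such as KLF9 and HR. The count was 123 and 81 without vehicle replicate 1 or 2 of 6 h, 71 and 49 without T3 replicate 1 or 2 of 6 h, and 750 without vehicle replicate 1 of 24 h. KLF9 had a log2 fold change of 3.95 at 6 h and -3.08 at 24 h, NPTX1 of 1.57 and -2.24, and HEG1 of 1.45 and -1.13, all higher with T3 at 6 h and lower at 24 h (edgeR adjusted p of the difference = 4.08e-06, 2e-05 and 2.92e-07). Without correction 282 genes were called at both times in the same direction and 28 in opposite directions, while GC content had a slope of the same sign at both times. With the correction, 21 genes were called at both times, and those of them described nowhere above are named after their values were seen. Of them 9 went in opposite directions. KLF9, HR, NPTX1, HEG1, PHLDB2, RPS15A and TOMM40 were higher at 6 h and lower at 24 h, and GDF15 and PTX3 the reverse. The other 12 went the same way, among them NUPR1, GREM1, HSPG2 and RPL41, lower at both times, and HSPE1, SLC30A1, PSMA1, ANKS3, CYCS, L3HYPDH and PDCD6, higher at both. Of 36 p53 targets 6 changed more upward at 24 h than at 6 h, of 79 ribosomal protein genes 13 changed more downward, and of 52 histone genes 5 more downward and 1 more upward. Of 27 genes of the integrated stress response 11 changed more upward, a list of which 15 were lower at 6 h, and of 26 heat shock chaperones 12 more downward, a list of which 19 were higher at 6 h, when 7.64% of all genes were called in either direction.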

How the data were processed

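RNA was sequenced in 8 libraries, 2 per group, and grouped by the titles in the labels. The authors deposited raw read counts, a whole number for each gene symbol in each library, with no scaling and no pooling of replicates. Tools listed in the submitters' processing notes are CASAVA 1.7, STAR 2.7, HTSeq and DESeq2, with hg38 as build. For annotation release, strand setting and trimming the entry is: not given in the sources used here. Hence overlapping and antisense genes can share reads. Each table held 56832 gene rows, and its summary rows (reads outside features were 48.2% to 54.9% of unique reads at 24 h) were left out. Genes were filtered with filterByExpr, scaled by TMM and tested with edgeR 4.0.16 (R 4.3.3), robust quasi-likelihood F test, 1 coefficient per group over all 8 libraries, Benjamini-Hochberg adjustment over all genes tested. All adjusted p-values are from edgeR unless another tool is named. The common edgeR dispersion between replicate libraries came to a coefficient of variation of 13.1%, which may be technical, with 4 residual degrees of freedom. It was 16.7% with the 24 h libraries fitted alone (2 residual degrees of freedom), so the shared estimate was below that of the 24 h libraries. The correction was not fitted to the 24 h libraries alone. A floor of 3 counts was 0.347 to 0.678 CPM at 24 h, and intervals and floors cover counting error only. GC content of the longest transcript and exon length came from GENCODE 29 on GRCh38, matched for 30372 rows by symbol or RefSeq synonym and for 88.5% of genes tested. It may not be the annotation used for counting. The correction entered each library's lowess trends with both (span 0.3) as offsets. Alternatives were DESeq2 1.42.0, RLE factors, no filter, only the 24 h libraries, GC or length alone, a replicate block and leaving out each library. Leave-outs with the correction and a span of 0.6 were chosen after seeing the data. Only the uncorrected edgeR fit was tested on simulated counts, which had no trend with GC content or length. The correction and the leave-outs were not tested in this way.

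Genes were named by a rule: among called genes averaging 1 CPM or more whose groups did not overlap, the 12 largest rises, the 12 largest falls, the 5 smallest p-values, the 10 largest in each direction that kept their call with correction, up to 5 called members per list, and fixed genes of the T3 pathway, SWI/SNF and thyroid. The comparison, lists and rule were chosen with earlier results of these data known. Not every gene that the rule selects is described. The lists numbered 40. Genes outside the rule are said to be named after their values were seen. Replicates of a group differed beyond sampling noise (chi-square per degree of freedom of 7.24 for T3 and 27.8 for vehicle at 24 h), so none is a repeat deposit. At 6 h these values were lower, 2.69 for T3 and 4.10 for vehicle.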

Additional observations from a re-analysis of the deposited data

Results flagged for a closer look

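For 24 of the genes described, the response to T3 as labelled differed between the 2 times by the edgeR test of the difference. The values are the log2 fold change at 24 h less that at 6 h, so a negative value means a lower change at 24 h. They compare fold changes only, and vehicle levels themselves differed widely between the times for genes such as KLF9, HR and PITX1. Mean vehicle levels at 6 h and 24 h were 797 and 52.8 CPM for FASN, 2808 and 299 CPM for SLC7A5, and 189 and 1174 CPM for COL1A1. A set of 118 genes had at least 20 CPM at 6 h and was picked with a ceiling of 1% of that level. Their median percent of the 6 h level was 0 and 0.22 in the vehicle libraries of 24 h and 0 in both T3 libraries. The source of these shifts was not tested. Genes of the T3 response and those with the largest changes had -7.03 for KLF9, -4.96 for HR, -3.86 for COL9A2, -5.00 for PITX1, -3.90 for CORO7, -3.81 for NPTX1, -2.58 for HEG1, -1.11 for IFITM3 and -0.87 for SLC30A1. The p53 targets had 0.77 for CCNG1, 0.82 for MDM2, 2.48 for GDF15 and 1.00 for CDKN1A. The histone genes had -2.03 for HIST1H2AK and -0.85 for HIST1H2AG. The ribosomal protein genes had -1.27 for RPL28, -1.55 for RPS15 and -0.79 for RPS25. Stress, transport and adhesion genes had 0.74 for ITGAV, -1.73 for HSPB1, -3.53 for MT2A, 1.18 for SLC39A10, 0.92 for SLC7A11 and 3.03 for OCLN. With GC content and length corrected, 3 of them no longer passed this test, IFITM3 (edgeR adjusted p = 0.0516), HSPB1 (0.05703) and RPS25 (0.0855).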

How the results depend on the processing

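The count of 1948 genes called at 24 h was 1358 with DESeq2, 1972 with RLE factors, 1962 with length alone corrected, and 1980 with no filter on low counts, when 650 were higher and 1330 lower. It moved to 702 with only the 4 libraries of 24 h, 150 with GC content alone corrected, 172 with GC content and length corrected, and 1128 to 2056 on leaving out 1 library. The replicate numbers did not pair the libraries (correlation of the replicate differences -0.073 at 24 h and 0.043 at 6 h). With the replicate number as a block, 1641 genes were called, and 51 with the block and both corrections. The 172 corrected calls were 170 with a span of 0.6 and 104 to 903 on leaving out 1 library. The 269 genes whose response differed between times were 294 with DESeq2, 674 with no filter, 246 with the replicate block, 149 with the block and both corrections, and 49 to 750 on leaving out 1 library. SMARCB1 changed sign, to 0.0048 with GC content and length corrected, 0.016 with GC content alone and 0.0049 with the block and both corrections. Fewer libraries entered the fits of the 24 h libraries alone and of the leave-outs. For the other settings the cause was not tested. Of the 86 called genes described, 81 kept their call in DESeq2, 84 with the replicate block, 62 in all 8 leave-outs, 38 with GC content and length corrected and 17 in every setting. Depth limits genes near the floor of 3 counts, such as HR, PITX1 and SCNN1A.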
